A study of Mus musculus with 6 samples.

Results

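Mouse genes for translation initiation factors and for the 4E-binding proteins (4E-BPs) were followed in MEFs (mouse embryonic fibroblasts) exposed to 2 small molecules that act on mitofusins, the proteins that fuse the outer membranes of mitochondria. The genes were chosen by name: symbols that begin with Eif and a digit from 1 to 6 and that had at least 10 raw counts in every library. Left out were Eif2ak1 to Eif2ak4, which encode kinases, Eif2s1, which encodes the alpha subunit of eIF2, and symbols marked as pseudogenes. This gave 48 of the 55291 genes listed. Of the 68 symbols with such a name, 10 were pseudogenes, 5 were left out by name and 5 lay under the minimum. The last 5 were Eif2c5, Eif4a3l1, Eif4a3l2, Eif4e1b and Eif4ebp3, the third 4E-BP gene, which had 4 to 7 counts in a library and was not tested. All 48 genes also passed the filter on low counts used for testing, which kept 14290 genes. These genes, and the 4 lists of other genes given below, were chosen with earlier results of these data known. Shares of all genes printed beside theirs are therefore a description and not a test.

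All cells were labelled WT and differed only in treatment. The groups were Vehicle, MASM7 (an activator of mitofusins, 1 μM for 6 h) and MFI8 (an inhibitor of mitofusins, 20 μM for 6 h), with 2 libraries in each. The doses and the time come from the paper, and for Vehicle no exposure time is given in the sources used here. No source used here says that the 2 libraries of a group came from separate cultures, so p-values measure the spread between these libraries, which may be technical. The cells are a single line of fibroblasts, so a level describes that line only.

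Initiation of translation loads a ribosome at the start codon of an mRNA. The cap at the 5′ end is bound by eIF4E, which joins the scaffold eIF4G and the helicase eIF4A in the eIF4F complex. Meanwhile eIF2 carries the initiator tRNA to the small ribosomal subunit, together with eIF1, eIF1A, eIF3 and eIF5, and eIF2B reloads eIF2 with GTP. The 4E-BPs hold eIF4E away from eIF4G until mTORC1, a kinase complex that reads nutrients and energy, phosphorylates them. Much of the control of these factors is by phosphorylation, which RNA-seq does not measure.

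By factor the 48 genes fall into 8 groups. These are 5 genes of the Eif1 group, 5 of Eif2, 5 of Eif2b, 14 of Eif3, 12 of Eif4, 2 of Eif4ebp, 4 of Eif5, and Eif6 alone. The Eif2 group holds the beta and gamma subunits of eIF2 (Eif2s2, Eif2s3x and its Y-linked copy Eif2s3y) and 2 genes for other tRNA-delivering factors, Eif2a and Eif2d. The gene Eif2a is not the alpha subunit.

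Upstream sequences were examined because the genes make up a shared machine. RefSeq start sites on GRCm38.p6 were at hand for 38 of the 48 genes. Those without an entry were Eif1a, Eif2b3, Eif3e, Eif3h, Eif3i, Eif3j2, Eif4e3, Eif4ebp1, Eif4g2 and Eif6. The 250 bases before each start were searched on both strands for 5 motifs. CACGTG, the E-box that MYC and related factors bind, was present for 9 of 38 members (23.7%), against 6.86% of all genes in the same table. All genes here means its 27025 genes, whether or not expressed in these cells, and no share over the genes tested was computed. CCGGAAG, an ETS-type motif, was present for 12 members (31.6%), against 7.83% of all genes. CCAAT was present for 12 members (31.6%), against 37.5% of all genes. The element TGACGTCA was present for 0 members, against 1.77% of all genes. The element TGATGNAA, where N is any base and ATF4-type factors bind, was present for 1 member, Eif2s3x, against 3.91% of all genes. A gene was counted if any of its start sites had a match. For Eif4e, another start site than the 1 shown, at position 138526191, had none of the 5 motifs. The 4 sequences that follow show an E-box for the cap-binding protein and its scaffold. They also show a pair of ETS-type motifs for an eIF3 subunit and the ATF4-type element for eIF2 gamma. Each is the 150 bases before a start site, written 5′ to 3′ on the strand of the gene, with the motif or its reverse complement in capitals.
Eif4e, chr3:138527118-138527267, plus strand: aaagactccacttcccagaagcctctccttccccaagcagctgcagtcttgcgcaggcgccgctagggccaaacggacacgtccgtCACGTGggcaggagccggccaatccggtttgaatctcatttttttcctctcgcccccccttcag
Eif4g1, chr16:20672577-20672726, plus strand: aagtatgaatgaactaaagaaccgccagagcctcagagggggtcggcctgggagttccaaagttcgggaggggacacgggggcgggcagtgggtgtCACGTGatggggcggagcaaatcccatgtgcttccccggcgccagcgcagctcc
Eif3c, chr7:126566367-126566516, minus strand: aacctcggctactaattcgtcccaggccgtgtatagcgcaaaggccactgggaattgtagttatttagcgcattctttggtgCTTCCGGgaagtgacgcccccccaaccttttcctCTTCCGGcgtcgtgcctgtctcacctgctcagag
Eif2s3x, chrX:94212652-94212801, minus strand: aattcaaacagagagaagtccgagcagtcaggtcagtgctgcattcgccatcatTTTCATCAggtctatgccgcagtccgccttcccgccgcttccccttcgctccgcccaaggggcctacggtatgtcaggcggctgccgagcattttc
A match is a run of letters and does not show that a factor binds there. Of the genes with an E-box, Eif4e had a log2 fold change of −0.18 with MFI8 against Vehicle and Eif4g1 one of −0.03. With offsets for GC content and length these were −0.12 and −0.10, and Eif4g1 was at 0.01 without Vehicle replicate 2 or MFI8 replicate 1.

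Between 22791792 and 30677751 reads were counted on genes in a library. The 48 genes took 1.72% to 1.80% of them, and mitochondrially encoded genes took 1.37% to 1.82%, lowest in the 2 MFI8 libraries. The 9 fibroblast markers summed to between 5424 and 6972 TPM (deposited transcript levels, scaled for gene length and depth). The 3 epithelial markers summed to at most 0.486 TPM, the 2 endothelial ones to at most 0.428, the 3 pluripotency ones to at most 0.07 and the 2 neuronal ones to at most 0.104. The 4 immune markers summed to 8.91 to 11.9 TPM, nearly all from Cd68, a lysosomal protein gene, while Adgre1 and Cd3e were at 0 in all 6 libraries. Vim, S100a4 and Col1a1 were the highest of the fibroblast markers, while Thy1, a fibroblast surface marker, was low, at 0.283 to 0.75 TPM.

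Initiation-factor transcripts were abundant. Their median level was 191 TPM, against 18.9 TPM for the genes tested, and 93.3% of the genes tested lay below the members' median. Eif5a, whose product helps ribosomes through difficult stretches of sequence and at termination, had the highest level, with a median of 2668 TPM over the 6 libraries. Eif4a1, the main eIF4A helicase gene, followed with 989 TPM, and Eif3h, an eIF3 subunit, with 906 TPM.

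**Figure D1:**
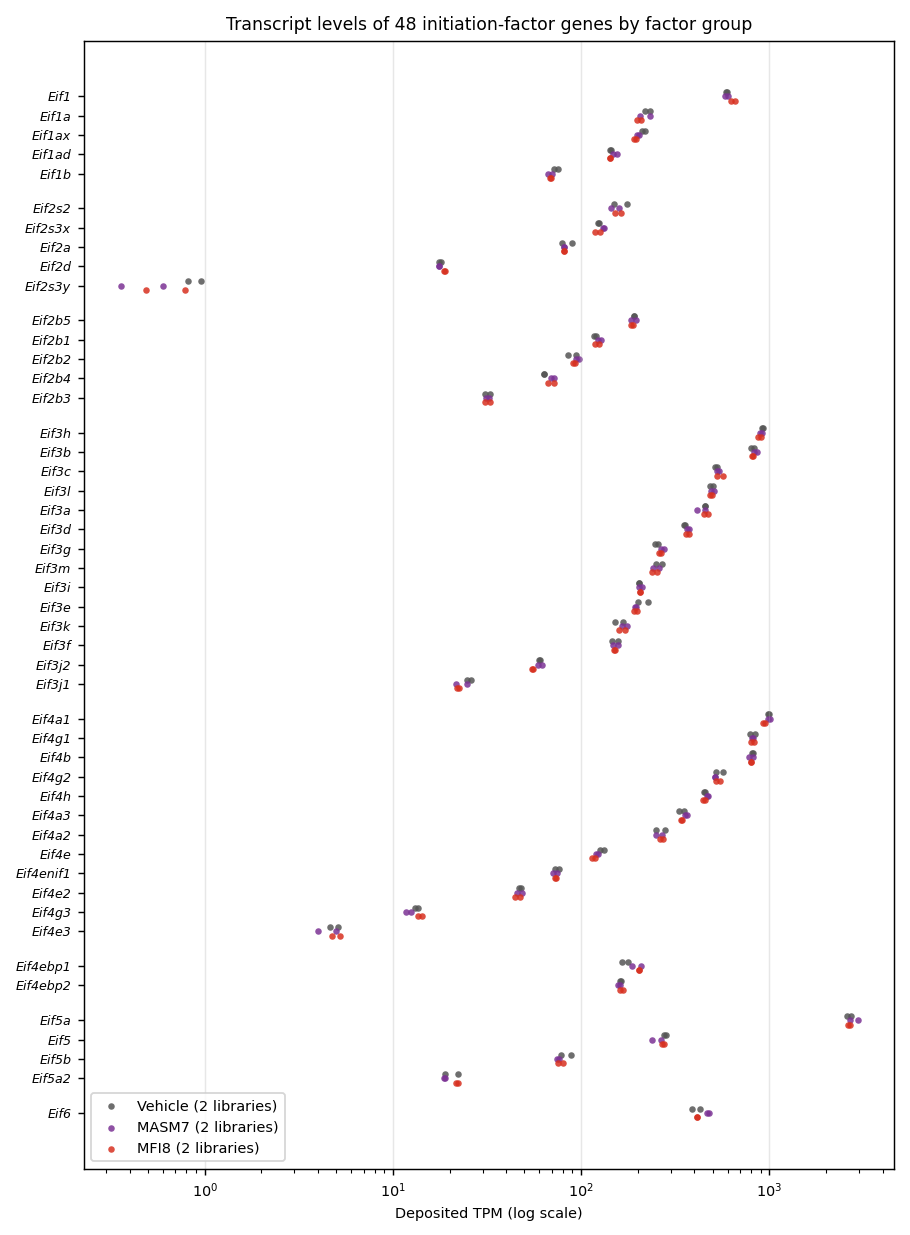
Deposited TPM (horizontal, log scale) of the 48 genes, grouped by factor and ordered within a group by their median; each point is 1 of the 6 libraries and colour gives the treatment. Levels span from under 1 TPM for Eif2s3y to between 2585 and 2942 TPM for Eif5a, and for most genes the 3 treatments lie on top of each other.

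Subunits of 1 complex were not at equal levels. The 14 Eif3 genes ran from 23.5 TPM for Eif3j1, a loosely held subunit, to 906 TPM for Eif3h, a 38.5-fold range. The 5 Eif2b genes spanned 5.94-fold, from 31.8 TPM for Eif2b3 to 189 TPM for Eif2b5, the catalytic epsilon subunit. In the cap-binding group, Eif4g1 had 817 TPM and Eif4e 121 TPM, so that the scaffold was more abundant than the cap-binding protein at the level of RNA. The 4E-BP transcripts Eif4ebp1 (194 TPM) and Eif4ebp2 (162 TPM) each exceeded Eif4e. The lowest were Eif2s3y, at 0.692 TPM with 13 to 28 counts in a library, and Eif4e3, a divergent relative of Eif4e, at 4.87 TPM.

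Several pairs share sequence, so reads may have been split between them: Eif3j1 and Eif3j2, Eif2s3x and Eif2s3y, Eif1a and Eif1ax, and Eif4a1 and Eif4a2. Their separate values are uncertain for that reason. Counts assigned to the 10 pseudogene symbols came to between 0.229% and 0.248% of the members' counts.

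The first comparison, MFI8 against Vehicle, asks how 6 h of mitofusin inhibition affected these transcripts. By edgeR's quasi-likelihood test 0 members and 0 of the 14290 genes (0.00%) passed an adjusted p of 0.05, the smallest adjusted p being 0.0924. DESeq2's Wald test called 49 genes and 0 members, and limma on log2 TPM called 0 genes. At an unadjusted p under 0.05 there were 8 of 48 members (16.7%), against 9.86% of all genes. The count was 3 without MFI8 replicate 2 (5.95% of all genes), 4 without Vehicle replicate 2 (7.51%) and 5 without MFI8 replicate 1 (8.61%). Of the 8, 7 were lower with MFI8, where 4.65% of all genes were lower at that p, and 1, Eif4ebp1, was higher, against 5.21% of all genes.

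Libraries were then compared within the model for the replicate numbers 1 and 2 that the labels share between groups, called the replicate block. With it, 720 genes (5.04%) passed by edgeR's test, and among them were 5 members (10.4%). Eif1a (adjusted p 0.0160), Eif1ax (0.0131), Eif3e (0.0302) and Eif4e (0.0182) were lower with MFI8, and Eif4ebp1 (0.0256) was higher. Of all genes, 2.25% were called as lower and 2.79% as higher. DESeq2's Wald test with the same block called the 4 lower genes but not Eif4ebp1 (adjusted p 0.0828).

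Eif4ebp1, on chromosome 8 (27260329 to 27276674, plus strand, GRCm38), encodes 4E-BP1. It had 111 and 102 CPM (counts scaled to library size with TMM factors) in Vehicle and 123 and 123 CPM with MFI8. Both MFI8 libraries lay above both Vehicle libraries. The log2 fold change was 0.21 (SE 0.069), or 15.5% higher. In bulk RNA, more cells with a transcript and more of it per cell cannot be told apart.

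Eif4e, on chromosome 3, encodes the protein that 4E-BPs bind. It had 214 and 224 CPM in Vehicle and 198 and 190 CPM with MFI8, so the groups did not overlap. The log2 fold change was −0.18 (SE 0.052), or −11.7%. Eif4ebp2, which encodes a second 4E-BP, had 269 and 262 CPM in Vehicle and 260 and 267 CPM with MFI8. Its libraries overlapped and its log2 fold change was −0.01 (SE 0.049, adjusted p 0.950 by edgeR). It was at −0.07 under GC and length offsets, and with the block added it was not called (adjusted p 0.261 by edgeR). Eif4e2, a relative of Eif4e that also binds caps, had 102 and 98.1 CPM in Vehicle and 98.03 and 92.5 CPM with MFI8, a log2 fold change of −0.07 (SE 0.059), with groups apart by a small margin. Eif4a1, the helicase gene, had 1226 and 1205 CPM in Vehicle and 1109 and 1137 CPM with MFI8, a log2 fold change of −0.11 (SE 0.046). Its MFI8 libraries were both lower, but Eif4a1 was not called with the block (adjusted p 0.132 by edgeR).

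**Figure D2:**
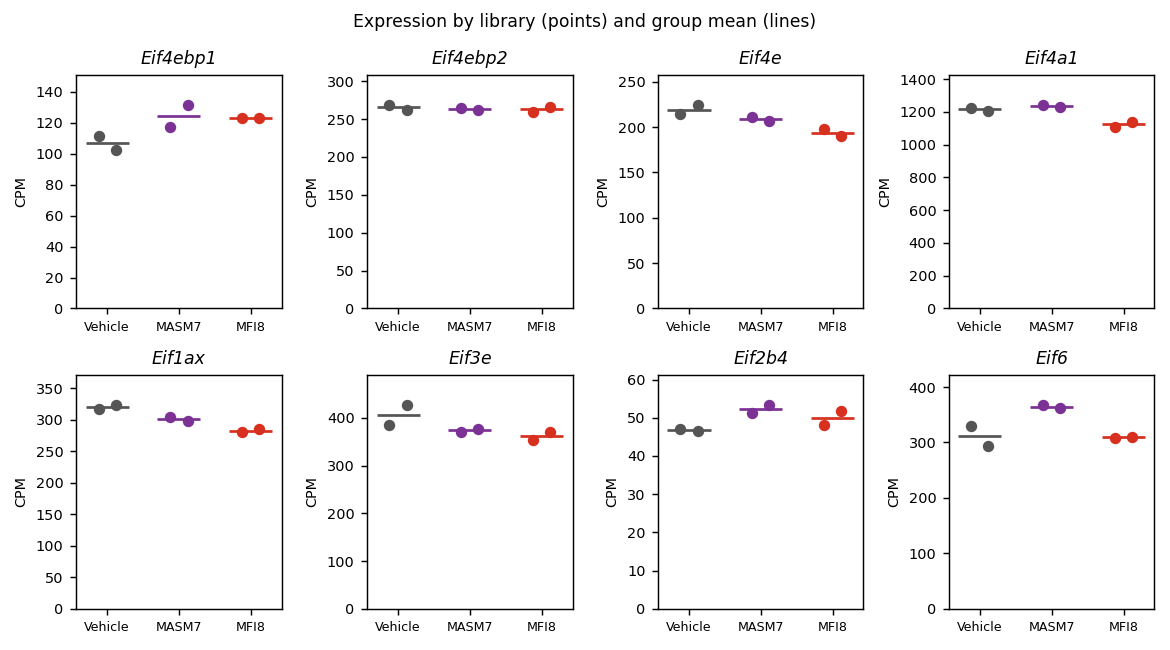
CPM (vertical, from 0) of 8 genes in each library (points) with the mean of each group (lines), for Vehicle, MASM7 and MFI8. Eif4ebp1 is higher in both treated groups, Eif4e, Eif1ax and Eif3e are lower in both (for MASM7 only in values without GC and length offsets), Eif4a1 is lower with MFI8, and Eif6 is higher in the MASM7 libraries than in the other 4.

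The Eif1 group had the lowest median of the groups with at least 4 genes, at −0.13, with all libraries and no offsets. Without Vehicle replicate 1 the Eif2 median, at −0.16, was the lower of the 2. Eif1ax, the X-linked gene for eIF1A, which steadies the scanning ribosome, had 317 and 323 CPM in Vehicle and 280 and 285 CPM with MFI8. Both MFI8 libraries were lower, by a log2 fold change of −0.18 (SE 0.048). Eif1a, a near copy of it, had 274 and 257 CPM in Vehicle and 241 and 228 CPM with MFI8, a log2 fold change of −0.18 (SE 0.067). Eif1, which guards start codon choice, went the other way, with 358 and 346 CPM in Vehicle and 365 and 384 CPM with MFI8. Its groups did not overlap, but it had a log2 fold change of only 0.09, or 0.05 without MFI8 replicate 2, and an adjusted p of 0.599 by edgeR.

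Of the 14 Eif3 genes, 10 were lower and 8 of those did not overlap, against 19.3% of all genes, with a median of −0.03 that was −0.00 by limma on log2 TPM. Between the replicate 1 libraries 13 of the 14 were lower and between the replicate 2 libraries 8, and 8 were lower under the GC and length offsets described further on. Eif3e, whose product is a subunit of the eIF3 core in mammals, had 386 and 426 CPM in Vehicle and 355 and 371 CPM with MFI8, a log2 fold change of −0.16 (SE 0.059). Without Vehicle replicate 2, its log2 fold change was −0.09. Eif3j1 had 40.9 and 42.4 CPM in Vehicle and 36.4 and 35.4 CPM with MFI8, a log2 fold change of −0.21 (SE 0.080). Eif3j2 had 40.6 and 40.5 CPM in Vehicle and 36.4 and 36.6 CPM with MFI8, a log2 fold change of −0.15 (SE 0.066) that was −0.08 under GC and length offsets. Neither was called with the block (adjusted p 0.0619 and 0.181 by edgeR). The core subunits Eif3a and Eif3b, which hold the complex together, were at −0.01 and −0.02. With GC and length offsets Eif3a was at 0.00 but Eif3b at −0.09, below the −0.06 of Eif3e in the same fit, and Eif3b was not called there with the block (adjusted p 0.110 by edgeR).

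The Eif4 group had a median of −0.04 with 10 of 12 genes lower, Eif2 a median of −0.07, Eif2b of 0.00 and Eif5 of −0.05. The Eif4 median was −0.07 under GC and length offsets and −0.01 by limma on log2 TPM. The Eif5 median was −0.06 without Vehicle replicate 1, −0.02 without Vehicle replicate 2 and −0.02 by limma on log2 TPM. The Eif2 median ranged from −0.16 without Vehicle replicate 1 to −0.01 without Vehicle replicate 2, was −0.02 without MFI8 replicate 1, was −0.02 under GC and length offsets and was −0.03 by limma. Eif5b, which joins the 2 ribosomal subunits, had 217 and 243 CPM in Vehicle and 205 and 217 CPM with MFI8, a log2 fold change of −0.13 (SE 0.064). Its groups did not overlap by a small margin, 217.1 against 216.6 CPM. Without Vehicle replicate 2 its log2 fold change was −0.04, and without Vehicle replicate 1 it was −0.21. Over all 48 genes, 35 were lower with MFI8, against 49.3% of all genes. The median log2 fold change was −0.04, against 0.00 for all genes tested. The libraries did not overlap and were lower for 22 members (45.8%), against 19.3% of all genes, and higher for 4 members (8.33%), against 20.9%. Lower values held for 39 of the 48 genes between the replicate 1 libraries and for 30 between the replicate 2 libraries. On log2 TPM, 27 of the 47 genes kept by the filter of that fit, which left out Eif2s3y, were lower, against 42.3% of all genes, with a median of −0.01.

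**Figure D3:**
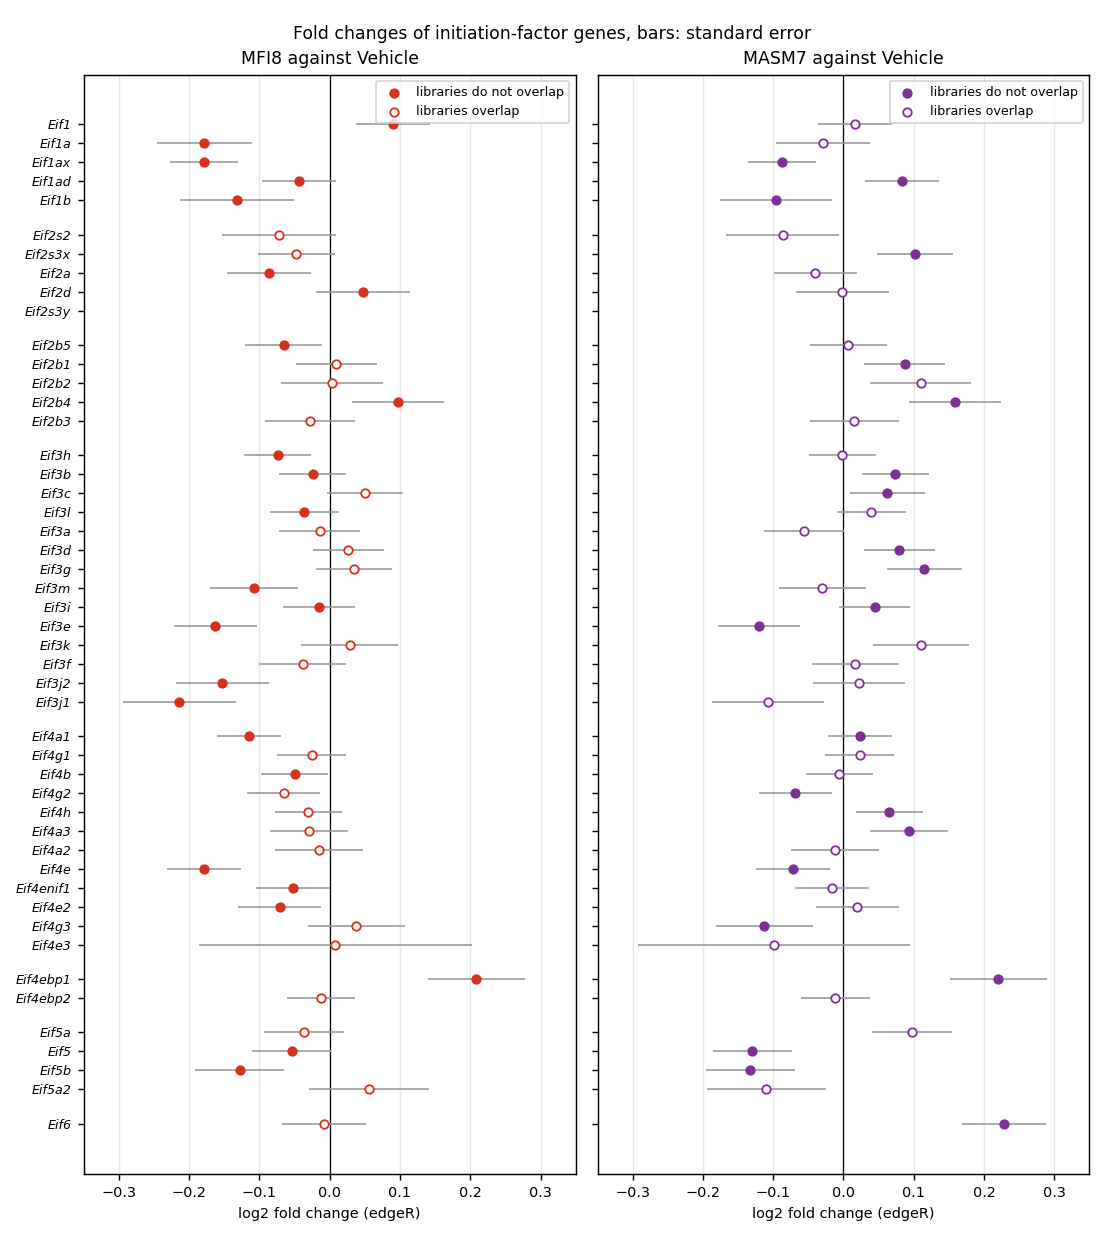
Log2 fold change by edgeR (horizontal, bars: standard error) of 47 genes by factor group for MFI8 (left) and MASM7 (right) against Vehicle; filled points are genes whose treated and Vehicle libraries do not overlap. Eif2s3y, which had few counts, is not drawn. With MFI8 most points of the Eif1, Eif3 and Eif4 groups lie left of 0, while with MASM7 all 5 Eif2b points lie right of it.

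GC content moved with these differences. Across the 48 genes, which share the same 6 libraries, Pearson's r between the GC content of the longest transcript and the log2 fold change was 0.55 with MFI8 and 0.58 with MASM7. Over all tested genes with a known transcript it was 0.16 and 0.27. With offsets for GC content and length fitted in each library, r across the members was 0.13 for both. The offsets were fitted on GC content in these same libraries, so a fall in r was built into them. Under the offsets Eif3e moved to −0.06, Eif1a to −0.11, Eif1ax to −0.12 and Eif4e to −0.12, while Eif4ebp1 was at 0.23. With offsets and the block together, 594 genes (4.16%) and 4 members passed by edgeR's test: Eif1ax (adjusted p 0.0368), Eif4e (0.0493) and Eif5b (0.0240), all lower, and Eif4ebp1 (0.0123), higher. Eif3e (0.318) and Eif1a (0.0636) did not pass. With the offsets 33 of 48 members were lower. The part of GC content in each gene's difference was not tested.

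**Figure D4:**
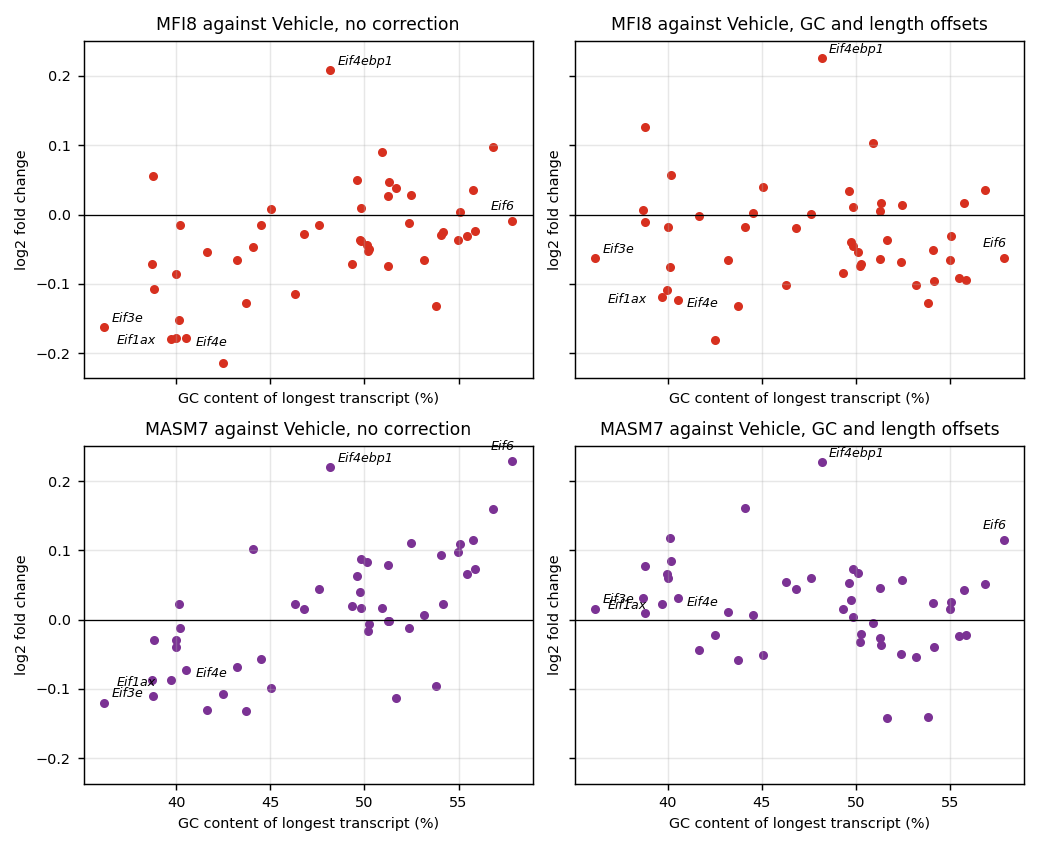
Log2 fold change (vertical) against GC content of the longest transcript in % (horizontal) for 47 genes, without correction (left) and with GC and length offsets (right), for MFI8 (top) and MASM7 (bottom). The upward slope on the left is nearly gone on the right, as the offsets were fitted to remove such a trend. Eif4ebp1, in the middle of the GC range, stays above 0.2 in all 4 panels. Eif6, the gene with the highest GC content, comes down with MASM7.

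The second comparison, MASM7 against Vehicle, asks the same of mitofusin activation. It shares its Vehicle libraries with the first, so values common to both are not independent. By edgeR's test 0 members and 0 of the 14290 genes (0.00%) passed, with a smallest adjusted p of 0.466. DESeq2's Wald test called 3 genes and 0 members, and limma on log2 TPM called 0 genes. At an unadjusted p under 0.05 there were 5 members (10.4%), close to the 10.2% of all genes. The count was 1 without Vehicle replicate 2 (5.58% of all genes) or MASM7 replicate 2 (3.86%) and 10 without Vehicle replicate 1 (12.8%). Eif2b4, Eif4ebp1 and Eif6 were higher, against 5.32% of all genes, and Eif2s3y and Eif5 were lower, against 4.88%. With the replicate block, 554 genes (3.88%) and 2 members (4.17%) passed by edgeR's test, Eif4ebp1 (adjusted p 0.0230) and Eif6 (0.00741), both higher, as were 2.48% of all genes. DESeq2's Wald test with the same block called Eif6 (adjusted p 0.00471) but not Eif4ebp1 (0.0641).

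Eif4ebp1 had 117 and 131 CPM with MASM7, above the 111 and 102 CPM of Vehicle. The log2 fold change was 0.22 (SE 0.069), or 16.5% higher. The 2 MASM7 libraries were not alike: without replicate 2 of MASM7 the log2 fold change was 0.13, and without replicate 1 it was 0.30. Eif4ebp2 had 265 and 262 CPM with MASM7 and overlapped with Vehicle (log2 fold change −0.01, SE 0.049, adjusted p 0.950 by edgeR). Eif4e had 211 and 207 CPM with MASM7, a log2 fold change of −0.07 (SE 0.052). Eif1ax had 304 and 298 CPM, a log2 fold change of −0.09 (SE 0.048), and Eif3e was at −0.12 (SE 0.059). All 3 turned direction under GC and length offsets, to 0.03, 0.02 and 0.02. Without Vehicle replicate 2, Eif4e was at −0.04 and Eif3e at −0.05. Without Vehicle replicate 1, Eif3e was at −0.19. None of the 3 was called with the block (adjusted p 0.376, 0.253 and 0.119 by edgeR). Eif1a had 276 and 245 CPM with MASM7, overlapped with Vehicle and was at −0.03 (SE 0.067), or 0.07 under the offsets. Eif4ebp2 was at −0.05 under the offsets.

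Eif6, on chromosome 2 (155819832 to 155826925, minus strand, GRCm38), encodes a factor that keeps the large ribosomal subunit from joining too early. It had 329 and 294 CPM in Vehicle and 367 and 363 CPM with MASM7. Both MASM7 libraries were higher, with a log2 fold change of 0.23 (SE 0.060), or 17.2%. Vehicle replicate 2 was the lowest library, and without it the log2 fold change was 0.15. Under GC and length offsets it was 0.11, and with the offsets and the block Eif6 was not called (adjusted p 0.104 by edgeR). Under that fit 150 genes (1.05%) passed, among them Eif4ebp1 (adjusted p 0.0321) and Eif2s3x (0.0405), both higher. Eif2s3x had 135 and 133 CPM in Vehicle and 144 and 144 CPM with MASM7, a log2 fold change of 0.10 (SE 0.054) without offsets and 0.16 with them.

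All 5 Eif2b genes, which encode the exchange factor of eIF2, were above 0, where 49.9% of all genes were below 0, with a median of 0.09. The median was 0.05 without Vehicle replicate 2. Under GC and length offsets it was 0.04 and Eif2b5 was at −0.05, and between the replicate 1 libraries 2 of the 5 were lower. The Eif5 group had a median of −0.12 with 3 of 4 genes lower, Eif3 of 0.03 with 9 of 14 higher, Eif4 of −0.01, Eif1 of −0.03 and Eif2 of −0.04. The Eif3 median was 0.01 without MASM7 replicate 2, 0.07 without MASM7 replicate 1 and 0.01 by limma on log2 TPM. With each library left out in turn, the Eif4 median ran from −0.03 to 0.02, that of Eif1 from −0.10 to 0.02 and that of Eif2 from −0.11 to 0.03. The Eif5 median was −0.02 without Vehicle replicate 2 and −0.02 under GC and length offsets. Eif2b4, which encodes the delta subunit, had 47.1 and 46.4 CPM in Vehicle and 51.2 and 53.3 CPM with MASM7. Its groups did not overlap and its log2 fold change was 0.16 (SE 0.065), but it was not called with the block (adjusted p 0.122 by edgeR) and was at 0.05 under GC and length offsets. Eif5, the factor that makes eIF2 hydrolyse its GTP, had 533 and 542 CPM in Vehicle and 514 and 468 CPM with MASM7, a log2 fold change of −0.13 (SE 0.056). It was not called with the block (adjusted p 0.0936 by edgeR), was at −0.06 without MASM7 replicate 2 and −0.20 without MASM7 replicate 1, and was at −0.04 under GC and length offsets. Eif2s3y had 1.14 and 0.954 CPM in Vehicle and 0.71 and 0.427 CPM with MASM7, a log2 fold change of −0.87 (SE 0.38) on at most 28 counts in a library, which was −0.55 without MASM7 replicate 2.

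Over the 48 genes, 25 were higher and 23 lower with MASM7, against 49.9% of all genes lower, with a median of 0.01. The libraries did not overlap and were higher for 14 members (29.2%), against 21.2% of all genes, and lower for 9 members (18.8%), against 21.6%. With GC and length offsets 31 were higher.

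The third comparison set MFI8 beside MASM7. The compounds were given at different doses, so compound and dose cannot be told apart, and both groups are those already described. By edgeR's test 0 members and 0 genes (0.00%) passed. DESeq2's Wald test called 21 genes and 0 members, and limma called 0 genes. At an unadjusted p under 0.05 there were 6 members (12.5%), against 7.18% of all genes, all lower with MFI8: Eif1ad, Eif2s3x, Eif3j2, Eif4a1, Eif5a and Eif6. The share of all genes that were lower at that p was 2.95%. The count was 1 without MFI8 replicate 1 (7.37% of all genes) and 3 without MASM7 replicate 1 (5.78%) or MFI8 replicate 2 (4.20%). With the block, 439 genes (3.07%) passed, and 1 member, Eif6 (adjusted p 0.00249 by edgeR), which was lower, as were 1.31% of all genes.

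Eif6 had 308 and 311 CPM with MFI8, within the range of the Vehicle libraries and below both MASM7 libraries. The log2 fold change was −0.24 (SE 0.060) between the compounds and −0.01 (SE 0.060) for MFI8 against Vehicle. Under GC and length offsets with the block it was −0.18 (adjusted p 0.00276 by edgeR). Eif4a1 had 1241 and 1229 CPM with MASM7, above both MFI8 libraries, a log2 fold change of −0.14 (SE 0.046) that was not called with the block (adjusted p 0.0831 by edgeR) but was by DESeq2's Wald test with the block (adjusted p 0.0463). Eif2s3x had 144 and 144 CPM with MASM7 and 125 and 134 CPM with MFI8, a log2 fold change of −0.15 (SE 0.054). Eif3j2 had 42.2 and 40.2 CPM with MASM7, above both MFI8 libraries, and was at −0.17 (SE 0.066). Eif1ad, which encodes a relative of eIF1A, had 123 and 118 CPM with MASM7 and 111 and 110.2 CPM with MFI8, a log2 fold change of −0.13 (SE 0.052). In all 3 the groups did not overlap. Eif5a had 1810.0 and 2006 CPM with MASM7 and 1718 and 1761 CPM with MFI8, a log2 fold change of −0.13 (SE 0.057). It was at −0.06 without MASM7 replicate 2, −0.21 without MASM7 replicate 1 and −0.08 under GC and length offsets. Under GC and length offsets with the block, 674 genes (4.72%) and 7 members passed by edgeR's test, all lower with MFI8: Eif1a, Eif1ax, Eif2s3x, Eif3j2, Eif4a1, Eif4e and Eif6. Without offsets Eif1a, Eif1ax and Eif4e were at −0.15 (SE 0.067), −0.09 (SE 0.048) and −0.11 (SE 0.052), with MFI8 libraries below both MASM7 libraries, and with offsets at −0.17, −0.14 and −0.15. Without MASM7 replicate 1, Eif1a was at −0.06.

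The 4E-BP genes had overlapping libraries between the compounds. Eif4ebp1 was at −0.01 (SE 0.068, adjusted p 0.979 by edgeR) and Eif4ebp2 at −0.00 (SE 0.049, adjusted p 0.998 by edgeR). Of the 48 genes, 37 were lower with MFI8 than with MASM7, against 50.5% of all genes, and the median was −0.06. On log2 TPM 30 of 47 were lower, against 37.1% of all genes. The libraries did not overlap and were lower for 23 members (47.9%), against 19.6% of all genes, and higher for 4 (8.33%), against 19.6%. In the Eif3 group 13 of 14 were lower, in Eif2b 5 of 5, and in Eif5 only 1 of 4.

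Genes that act on or beside these factors were described from 4 lists. The first held 23 kinases and regulators, and the second 18 partners at the cap, the poly(A) tail and the small subunit. The third held 13 genes grouped under elongation and termination, including enzymes that modify eIF5A, and the fourth 9 mitochondrial translation factors. All were tested, and 0 passed an adjusted p of 0.05 without the block in any comparison. In the first list 3 were higher and 2 lower at an unadjusted p under 0.05 with MFI8, against 5.21% and 4.65% of all genes. The list median was 0.06, against 0.00 for all genes. Under GC and length offsets the list median was 0.01, the value of Ppp1r15b, against −0.01 for all genes. The largest change in the list was that of Ppp1r15a (GADD34), which directs the phosphatase that removes the phosphate from eIF2 alpha. It had 25.9 and 26.6 CPM in Vehicle, 26.7 and 29.9 CPM with MASM7 and 33.1 and 44.9 CPM with MFI8. Both MFI8 libraries were above all the others, and the log2 fold change against Vehicle was 0.58 (SE 0.13, adjusted p 2.33e-05 by edgeR with the block). Without MFI8 replicate 2, its highest library, the log2 fold change was 0.34.

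Impact, an inhibitor of the kinase GCN2, had 39.99 and 36.8 CPM in Vehicle and 43.5 and 45.9 CPM with MFI8, a log2 fold change of 0.22 (SE 0.073). Rptor, the mTORC1 subunit that holds 4E-BP1, had 94.5 and 89.8 CPM in Vehicle and 104 and 99.6 CPM with MFI8, a log2 fold change of 0.14 (SE 0.057). Rps6kb1, a kinase downstream of mTORC1, had 139 and 141 CPM in Vehicle and 129 and 119 CPM with MFI8, a log2 fold change of −0.17 (SE 0.063). Fmr1, a repressor of translation, had 234 and 243 CPM in Vehicle and 210 and 207 CPM with MFI8, a log2 fold change of −0.19 (SE 0.054). In none of the 4 did the groups overlap. With the offsets Rptor was at 0.04, Rps6kb1 at −0.11, Fmr1 at −0.12 and Impact at 0.27, and with the block added Impact (adjusted p 0.00918), Fmr1 (0.0325) and Ppp1r15a (0.000219) were called by edgeR and Rps6kb1 (0.118) was not. Without MFI8 replicate 2, Rps6kb1 was at −0.11. With the block, Ppp1r15a and Impact were called as higher and Rps6kb1 and Fmr1 as lower, 4 of 23 genes, against 2.79% and 2.25% of all genes. With MASM7, Rptor (0.14) and Akt1s1 (0.21), a second mTORC1 component, were higher and Gsk3b (−0.16) and Fmr1 (−0.20) were lower at that p, against 5.32% and 4.88% of all genes, and the block called Akt1s1 as higher and Fmr1 as lower, against 2.48% and 1.39% of all genes. Akt1s1 had 66.5 and 60.3 CPM in Vehicle and 73.0 and 73.4 CPM with MASM7, and Fmr1 had 215 and 201 CPM with MASM7. With the offsets Rptor was at 0.05, Akt1s1 at 0.06 and Fmr1 at −0.09, and with the block added neither Akt1s1 (adjusted p 0.593) nor Fmr1 (0.200) was called by edgeR. Between the compounds Ppp1r15a was higher with MFI8 by 0.47, or 0.23 without MFI8 replicate 2. Akt1s1 was at −0.18 at that p, against 4.23% of all genes higher and 2.95% lower. With offsets and the block, edgeR called Ppp1r15a (adjusted p 0.000199), Mknk2 (0.00751) and Pdcd4 (0.0496) as higher. It called Cyfip1 (0.0453) as lower and did not call Akt1s1 (0.124), where 4.72% of all genes were called.

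In the second list 15 of 18 were lower with MFI8, with a median of −0.09, against 49.3% of all genes. With MASM7 13 of 18 were lower, with a median of −0.03, against 49.9% of all genes. Under GC and length offsets only Paip2, Ncbp1, Ncbp2, Ctif, Dhx29 and Bzw1 of the list were still lower with MASM7. With MFI8, Pabpc1, Mcts1 and Tma7 turned from lower to higher under the offsets. The 2 comparisons share the Vehicle libraries. Bzw1, which competes with eIF5, had 549 and 579 CPM in Vehicle and 501 and 499 CPM with MFI8, a log2 fold change of −0.17 (SE 0.050) that was called with the block (adjusted p 0.0202 by edgeR). Paip1, which binds poly(A)-binding protein and eIF4A, was at −0.14 and the helicase Ddx3x at −0.13, or −0.06 and −0.07 under GC and length offsets. Without MFI8 replicate 1, Paip1 was at −0.07. Bzw1, Paip1 and Ddx3x passed an unadjusted p of 0.05, against 4.65% of all genes lower. With MASM7, Bzw1 was the only 1 of the list to do so, at −0.14, or −0.06 under the offsets, against 4.88% of all genes lower. Between the compounds Ctif was at 0.19, Denr at −0.14 and Bzw2 at −0.12 at that p, against 4.23% of all genes higher and 2.95% lower. With the block 0 of the 3 were called. With offsets and the block Denr (adjusted p 0.0305 by edgeR) was called, and Ctif (0.128) and Bzw2 (0.0504) were not. In the third list 0 passed an unadjusted p of 0.05 with MFI8, against 9.86% of all genes, and 1 of 13 with MASM7, Dohh (0.20, or 0.04 under the offsets), an enzyme that modifies eIF5A, against 5.32% of all genes higher. Between the compounds Eef1e1, Dhps and Dohh were lower with MFI8 at that p, by log2 fold changes of −0.17, −0.22 and −0.23. These were 3 of 13 genes, against 2.95% of all genes lower. With the block 0 of them were called (adjusted p 0.0840, 0.0502 and 0.0997 by edgeR). With offsets and the block Eef1e1 (adjusted p 0.0153 by edgeR) was called, and Dhps (0.0749) and Dohh (0.249) were not. Under the offsets Dohh was at −0.14. Dhps and Dohh together make the hypusine of eIF5A. In the fourth list 0 of 9 passed in any comparison, against 9.86%, 10.2% and 7.18% of all genes, with medians of 0.00 for MFI8 and 0.02 for MASM7.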

How the data were processed

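RNA-seq of polyA RNA from 6 libraries was used. Per the paper, the authors trimmed the reads (Trimmomatic), mapped them to GRCm38 (STAR) and counted those over exons (featureCounts). They deposited a raw count per gene, the same counts divided by size factors from DESeq2 (not used here) and TPM values. Strand setting and annotation release are not given in the sources used here, so overlapping and antisense genes may share reads.

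Raw counts were fitted in edgeR 4.0.16 (R 4.3.3) with TMM factors, 3 groups of 2 libraries and filterByExpr, and tested by quasi-likelihood with Benjamini-Hochberg adjustment over 14290 genes at 0.05. Standard errors are the size of the fold change over the square root of F. CPM compares libraries, and the deposited TPM compares genes. Scripts were tested on simulated data. Alternatives were DESeq2 1.42.0, limma 3.58.1 on log2(TPM + 1) and log2(TPM + 0.1), other scalings and filters, GC and length offsets (lowess span 0.3, GENCODE vM21, 97.9% of tested genes matched), only the groups compared, and each library left out. Promoter sequences are from RefSeq (GRCm38.p6).

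The replicate numbers were checked for pairing: deviations from group means correlated between same-numbered libraries at r of 0.19, 0.15 and 0.16 over the genes tested, each above 0.1, at 0.51, 0.62 and 0.54 over the 7145 genes with the highest levels, and at 0.27, −0.06 and −0.43 over the 48 genes. The labels give the numbers, and no source names what they share. An exact permutation test of 2 against 2 libraries cannot go below 0.333, so none was run.

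Values by library, with the fold change and its standard error, are given for members with an unadjusted p under 0.05 and libraries that do not overlap, those called with or without the block, and the 4E-BP genes. Genes of the 4 lists past that p are given by fold change, some also by library, and any other gene was named once its values were known. The members and lists were chosen with earlier results of these data known.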

Additional observations from a re-analysis of the deposited data

How the results depend on the processing

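Depth limits Eif2s3y most, with 13 to 28 counts in a library. The cause of the changes that follow was not tested. The replicate block raised the members called from 0 to 5 (MFI8), 2 (MASM7) and 1 (between compounds), the genes called from 0 to 720, 554 and 439, and the members at an unadjusted p under 0.05 to 12 (MASM7) and 14 (between compounds), where 19.9% and 15.6% of all genes passed. DESeq2 with the block called 4, 1 and 2 members and 218, 184 and 113 genes, and without it 49, 3 and 21 genes, with 2 members at an unadjusted p under 0.05 for MASM7 (5.39% of all genes). GC and length offsets with the block called 4, 2 and 7 members and 594, 150 and 674 genes, with 17, 8 and 21 members at an unadjusted p under 0.05, against 17.1%, 13.6% and 17.9% of all genes; the offsets alone gave 10 between compounds (7.55%). With no filter beyond 1 count, 256, 127 and 168 genes were called, 1 member for MASM7 and 1 between compounds, and 8 (MASM7, 7.93% of all genes) and 10 (between compounds, 5.95%) passed unadjusted. Limma on TPM gave 5 members unadjusted for MFI8 with either pseudocount (10.1% of all genes). Fitting only the 2 groups compared called 1 gene for MASM7 and 2 between compounds.

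The median of the members for MFI8 against Vehicle was −0.0093 by limma with both pseudocounts, −0.048 with offsets and −0.048 with offsets and the block. For MASM7 it was 0.000197 with library size alone, 0.031 with no filter, −0.000791 and −0.000799 by limma (+ 1 and + 0.1), 0.019 with offsets and 0.019 with the block added. Between compounds it was −0.036 with library size alone, −0.070 with no filter, −0.064 with 10 counts in every library, −0.059 by DESeq2 with and without the block, −0.016 by limma with both pseudocounts, −0.056 with offsets and the block and −0.055 with only the 2 groups. Leaving out each library in turn gave medians of −0.048 to −0.021 (MFI8), 0.010 to 0.022 (MASM7) and −0.064 to −0.037 (between compounds), 0 to 26, 0 to 2 and 0 to 24 genes called, 0 members called, and 3 to 8, 1 to 10 and 1 to 9 members at an unadjusted p under 0.05.

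Values near 0 changed sign. The group medians that did so over the alternatives, libraries left out aside, were for MASM7 Eif1 (−0.048 to 0.023), Eif2 (−0.051 to 0.031) and Eif4 (−0.025 to 0.010), for MFI8 Eif2b (−0.020 to 0.031) and Eif6 (−0.063 to 0.020), and between compounds Eif2 (−0.024 to 0.036), Eif4ebp (−0.019 to 0.038) and Eif5 (−0.016 to 0.084). Eif4ebp2 for MFI8 went to 0.014 by limma with both pseudocounts, and ranged from −0.031 to 0.0081 with libraries left out. For MASM7 it went to 0.0082 with no filter, with −0.028 to 0.0049 for libraries left out. Between compounds it went to 0.021 with library size alone, 0.042 by limma with both pseudocounts and 0.00182 with only the 2 groups, with −0.020 to 0.020 for libraries left out. Eif4ebp1 between compounds went to 0.00941 with library size alone and 0.034 by limma with both pseudocounts, with −0.093 to 0.075 for libraries left out.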

Other observations

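The balance of 4E-BP to eIF4E transcripts was computed after the values of single genes had been seen, as the summed TPM of Eif4ebp1 and Eif4ebp2 over the TPM of Eif4e. It was 2.72 and 2.46 in the Vehicle libraries, 2.82 and 3.06 with MASM7 and 3.07 and 3.23 with MFI8. Both libraries of each compound lay above both Vehicle libraries. The smallest p that an exact permutation test of 2 against 2 libraries allows is 0.333, so none was run. These TPM carry no GC and length offsets, under which Eif4e with MASM7 turned direction. The ratio of Eif4ebp1 to Eif4ebp2 was 1.09 and 1.02 in Vehicle, 1.16 and 1.32 for MASM7 and 1.25 and 1.22 for MFI8. The ratio of Eif4a1 to Eif4a2, paralogous helicases, was 3.97 and 3.53 in Vehicle, 3.72 and 3.96 for MASM7 and 3.52 and 3.47 for MFI8, where the MFI8 libraries were the lowest of the 6.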
